A study of Mus musculus with 13 samples.

Results

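Neurotrophins and the GDNF family are secreted proteins that keep neurons alive and maintain their axons, and 8 genes that encode their receptors, one ligand and a sorting partner were examined here in noradrenergic neurons of the mouse hindbrain. The genes were chosen by name, as *Ntrk2*, *Ntrk3*, *Ngfr*, *Ret*, *Gfra1*, *Gfra2*, *Bdnf* and *Sort1*. Of these 8 genes, 7 were among the 12009 genes in the count table, and *Ngfr*, which encodes the p75 neurotrophin receptor (p75NTR), was not analysed here. All animals were *Slc6a2*-*eGFP*/*Rpl10a* mice, hemizygous on a C57BL/6 background, in which the promoter of *Slc6a2* (the norepinephrine transporter, NET) drives a GFP-tagged ribosomal protein, so that translating ribosome affinity purification (TRAP) with an antibody to GFP collects ribosome-bound mRNA from NET-expressing cells of the whole dissected hindbrain and not from the locus coeruleus (LC) alone. The mice received DSP-4, a toxin that enters noradrenergic axons through NET and damages their terminals, at 50 mg/kg intraperitoneally on days 1 and 7, or saline on the same days, and tissue was taken on day 14. Each library came from a pool of 2 mice of the same sex, aged 6 to 8 months, and the cerebellum had been discarded. There were 6 TRAP libraries from DSP-4-treated mice, 3 TRAP libraries from saline-treated mice, 2 input libraries (whole hindbrain) from DSP-4-treated mice and 2 input libraries from saline-treated mice. Saline-treated samples had been kept only if TRAP enriched *Slc6a2* past a set fold, a condition stated for the saline group only.

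BDNF binds the tyrosine kinase receptor TrkB (*Ntrk2*), and neurotrophin-3 binds TrkC (*Ntrk3*). GDNF and neurturin bind the membrane-anchored co-receptors GFRα1 (*Gfra1*) and GFRα2 (*Gfra2*), which bring them to the shared tyrosine kinase Ret, while sortilin (*Sort1*) binds proneurotrophins and sorts them and their receptors inside the cell. BDNF and GDNF are both known as trophic factors for LC neurons.

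Library totals ranged from 17491357 to 29199550 counts, and the 7 genes had between 174 counts (*Bdnf*, an input library) and 7443 counts (*Ntrk2*, a TRAP library) each. Levels are given as TMM-scaled CPM, counts scaled to a common library size. *Slc6a2* averaged 44.9 ± 16.4 CPM in TRAP from DSP-4-treated mice (SD, n = 6) and 124 ± 5.16 CPM in TRAP from saline-treated mice (SD, n = 3), with 3.17 ± 1.90 and 4.62 ± 0.611 CPM in the input of DSP-4-treated and saline-treated mice (SD, n = 2 each). All 10 noradrenergic markers were higher in TRAP than in input in both treatments. Their summed level was 572 to 787 CPM in TRAP from DSP-4-treated mice, against 933 to 1114 CPM in TRAP from saline-treated mice, so the TRAP libraries of the 2 treatments did not overlap. In bulk samples, fewer cells of a type and less RNA per cell cannot be told apart. The study reported no difference in the number of LC neurons after the same DSP-4 doses, counted in separate mice. The ribosome tag is driven by the promoter of *Slc6a2*, and a change in its capture was not tested. RNA of other cells was present as well: of 12 astrocyte markers, 7 were higher and 2 lower in TRAP than in input in DSP-4-treated mice, and 6 were higher and 2 lower in saline-treated mice, beside 27.3% of all genes higher and 23.8% lower in DSP-4-treated mice and 19.5% higher and 15.7% lower in saline-treated mice. The lower ones were *Gfap* (log2 fold change -0.59 in DSP-4-treated and -0.55 in saline-treated mice) and *Atp1b2* (-1.34 and -0.88) in both treatments. Of 4 inhibitory neuron markers, 3 were higher and 0 lower in each treatment. Their median log2 fold change of TRAP over input was 0.88 in DSP-4-treated and 0.95 in saline-treated mice. Medians were 0.48 and 0.50 for 5 serotonergic markers, and -0.39 and -0.10 for 6 cholinergic and motor neuron markers. The part of RNA of these neurons in the levels of the 7 genes was not tested. Replicates 2 and 3 of the DSP-4 TRAP group stood apart from the other 7 TRAP libraries on the first principal components and had 20 and 22 genes at 0, against 0 to 6 in the others.

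Promoter sequence is shown for the 2 genes that were higher in TRAP in both treatments, *Ntrk2* and *Gfra1*, and for the ligand *Bdnf* at the one of its 7 listed starts whose upstream window held a part of a cAMP response element, the CRE half-site. Each is the 250 bases before an annotated start, read 5′ to 3′ on the gene's strand from RefSeq on GRCm38.p6. The RefSeq table matched 4 of the 8 genes (these 3 and *Ngfr*), and not *Ret*, *Ntrk3*, *Gfra2* or *Sort1*. Capitals mark matches to an E-box (CANNTG), to the CRE half-site (TGACG), to a GC box (GGGCGG) or to the full CRE (TGACGTCA). The *Ntrk2* window lies at chr13:58806319-58806568 on the plus strand, the *Gfra1* window at chr19:58455399-58455648 on the minus strand and the *Bdnf* window at chr2:109692186-109692435 on the plus strand.
Ntrk2: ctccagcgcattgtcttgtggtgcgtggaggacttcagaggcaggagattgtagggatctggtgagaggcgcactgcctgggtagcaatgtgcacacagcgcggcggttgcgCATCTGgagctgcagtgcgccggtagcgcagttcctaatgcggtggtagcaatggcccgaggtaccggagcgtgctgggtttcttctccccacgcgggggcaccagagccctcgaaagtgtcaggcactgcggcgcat
Gfra1: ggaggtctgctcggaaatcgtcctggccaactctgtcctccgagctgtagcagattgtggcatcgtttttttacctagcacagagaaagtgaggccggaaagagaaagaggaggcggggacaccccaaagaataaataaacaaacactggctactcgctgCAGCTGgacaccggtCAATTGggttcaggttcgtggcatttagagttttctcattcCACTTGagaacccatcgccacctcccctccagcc
Bdnf: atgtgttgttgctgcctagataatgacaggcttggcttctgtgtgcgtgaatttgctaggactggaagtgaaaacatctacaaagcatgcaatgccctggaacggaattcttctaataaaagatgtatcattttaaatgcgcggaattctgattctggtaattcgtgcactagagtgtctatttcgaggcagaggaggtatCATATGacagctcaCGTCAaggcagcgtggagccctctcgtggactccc
The *Ntrk2* window held 1 E-box and the *Gfra1* window 3, and 66.2% of 32851 RefSeq windows of 250 bases hold at least 1. The *Bdnf* window held 1 E-box and the CRE half-site it was picked for, so nothing is read from the half-site's presence there; 17.8% of the windows hold it. The full CRE (1.55% of windows), the TATA box TATAAA (12.4%) and the GC box (32.7%) were in none of the 3 windows shown, while 2 of the other *Bdnf* windows held a GC box. Both strands were searched, and every full CRE also counts as a half-site. These matches are descriptions of letters and not of bound sites.

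The first question was whether these genes were higher in TRAP RNA, which also held RNA of other cells, than in hindbrain input. In DSP-4-treated mice, *Ntrk2*, *Ret*, *Gfra1* and *Bdnf* were higher in TRAP than in input and *Ntrk3* was lower, so 5 of 7 genes passed an adjusted p of 0.1, while 51.1% of all 12009 genes did (27.3% higher and 23.8% lower). In saline-treated mice, *Ntrk2*, *Gfra1* and *Sort1* were higher and none was lower, so 3 of 7 passed, while 35.1% of all genes did (19.5% higher and 15.7% lower). *Ntrk2* and *Gfra1* were thus higher in both treatments, as were 17.8% of all genes. The median log2 fold change of TRAP over input over the 7 genes was 0.60 in DSP-4-treated mice and 0.50 in saline-treated mice, against -0.0089 and -0.016 over all genes. The TRAP and input libraries did not overlap for 5 of the 7 genes in DSP-4-treated mice (50.6% of all genes, 26.4% higher and 24.3% lower) and for 4 of the 7 in saline-treated mice (59.8% of all genes, 29.6% higher and 30.2% lower). The calls are those of edgeR's quasi-likelihood test with Benjamini-Hochberg adjustment over 12009 genes.

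*Ntrk2* lies on chromosome 13 from 58806569 to 59133970 on the plus strand (GRCm38) and has 7 annotated protein-coding transcripts of 466 to 821 codons, of which the 2 of 821 codons are the longest. The gene is known to give a full-length receptor and truncated forms without the kinase, which astrocytes make in quantity, and gene counts do not separate them. In DSP-4-treated mice, TRAP levels of *Ntrk2* had a minimum of 198, a median of 222 and a maximum of 269 CPM, against 160 and 136 CPM in the 2 inputs. In saline-treated mice they were 211, 252 and 251 CPM in TRAP, against 131 and 137 CPM in input. Every TRAP library was thus above every input library. TRAP was 1.53 times input in DSP-4-treated mice (95% interval 1.21 to 1.95, log2 fold change 0.62 ± 0.16 SE, adjusted p = 0.00596) and 1.77 times input in saline-treated mice (1.36 to 2.30, 0.82 ± 0.18, adjusted p = 0.00363). The summed level of the 12 astrocyte markers was 4966 to 7055 CPM in TRAP and 3922 to 4458 CPM in input of DSP-4-treated mice, and 4921 to 6161 CPM in TRAP and 4099 to 4175 CPM in input of saline-treated mice, with no marker at 0 in any library. The astrocyte markers did not all move one way (*Gfap* and *Atp1b2* were lower in TRAP), and the part of astrocyte RNA in the *Ntrk2* difference was not tested. Without input replicate 7 the DSP-4 value was 0.51 (adjusted p = 0.113).

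**Figure D1:**
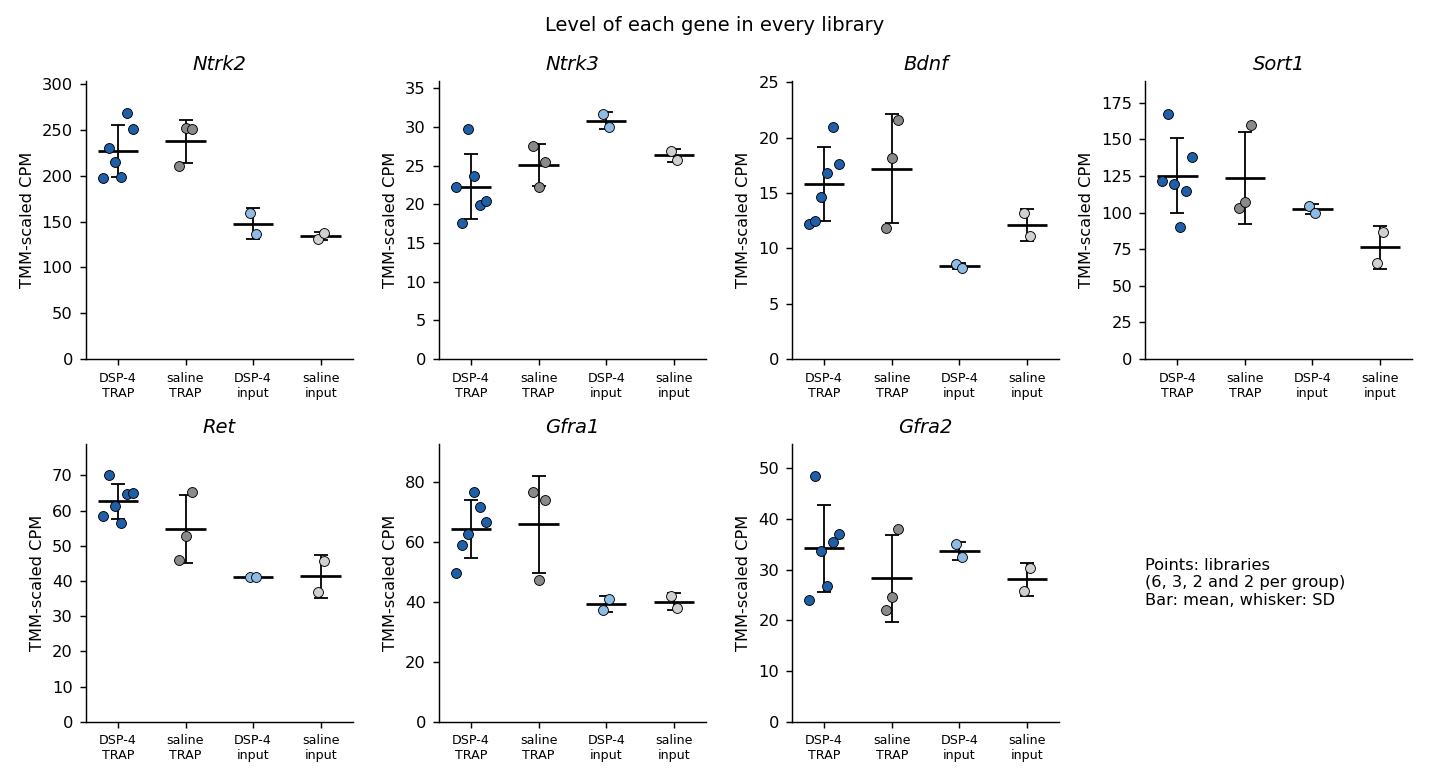
Level of each of the 7 genes in every library, as TMM-scaled CPM on a linear axis from 0. Points are libraries (6 TRAP from DSP-4-treated mice, 3 TRAP from saline-treated mice, and 2 inputs of each treatment), bars are means and whiskers are SDs. The TRAP libraries lie above both inputs of their treatment for *Ntrk2*, *Gfra1* and, narrowly in saline-treated mice, *Ret* in both treatments. The TRAP libraries of the 2 treatments overlap for all 7 genes.

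*Ntrk3* (chromosome 7, 78175959 to 78738012, minus strand) was the member that was lower in TRAP. Its level in DSP-4-treated mice had a minimum of 17.5, a median of 21.4 and a maximum of 29.7 CPM in TRAP, against 31.6 and 30.03 CPM in input. In saline-treated mice it was 27.5, 22.2 and 25.5 CPM in TRAP, against 26.9 and 25.7 CPM in input. The groups did not overlap in DSP-4-treated mice, by a margin of less than 1 CPM, and they overlapped in saline-treated mice. The log2 fold change was -0.47 ± 0.20 (SE) in DSP-4-treated mice (adjusted p = 0.0658) and -0.070 ± 0.23 in saline-treated mice (adjusted p = 0.848). The DSP-4 value no longer passed without TRAP replicate 8 (-0.44, adjusted p = 0.106), TRAP replicate 9 (-0.45, adjusted p = 0.105), input replicate 2 (-0.45, adjusted p = 0.243) or input replicate 7 (-0.50, adjusted p = 0.202), nor with libraries scaled by total counts alone (-0.40, adjusted p = 0.115).

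*Bdnf* (chromosome 2, 109674700 to 109727007, plus strand) had the fewest counts of the 7 genes. The annotation gives it 11 protein-coding transcripts of 249 to 289 codons, and 14.4% of its exonic length is overlapped by *Gm45346* on the other strand. Its level in DSP-4-treated mice had a minimum of 12.2, a median of 15.7 and a maximum of 20.9 CPM in TRAP, against 8.56 and 8.18 CPM in input. In saline-treated mice it was 11.9, 18.1 and 21.6 CPM in TRAP, against 13.1 and 11.1 CPM in input. TRAP and input were apart in DSP-4-treated mice and overlapped in saline-treated mice through TRAP replicate 4. The log2 fold change was 0.91 ± 0.28 (SE) in DSP-4-treated mice (adjusted p = 0.0169) and 0.50 ± 0.30 in saline-treated mice (adjusted p = 0.236). Without input replicate 7 the DSP-4 value was 0.88 (adjusted p = 0.125).

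The base composition of the genes moved with these values. Across 11560 genes, the log2 fold change of TRAP over input was correlated with the GC content of each gene's longest transcript. Spearman's correlation was -0.58 in DSP-4-treated mice and -0.42 in saline-treated mice, a description across genes that share libraries. *Bdnf* (40.9% GC) and *Ntrk3* (43.6% GC) lie in the lowest of 5 equal bins of genes by GC content, where the median log2 fold change was 0.80 in DSP-4-treated mice and 0.45 in saline-treated mice. The other 5 genes have 48.6% to 53.3% GC. With GC content removed as an offset, *Bdnf* in TRAP over input was 0.11 in DSP-4-treated mice (adjusted p = 0.782) and 0.040 in saline-treated mice (adjusted p = 0.936), so its call was lost. *Ntrk3* moved the other way, to -1.02 in DSP-4-treated mice (adjusted p = 0.000824) and -0.40 in saline-treated mice (adjusted p = 0.201). *Ntrk2* and *Gfra1* kept their calls in both treatments under this offset.

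*Ret* (chromosome 6, 118151745 to 118197718, minus strand) encodes the kinase that all GDNF family ligands share, with 2 annotated coding transcripts of 1073 and 1115 codons. In DSP-4-treated mice it had a minimum of 56.3, a median of 63.0 and a maximum of 70.1 CPM in TRAP, against 41.2 CPM in both inputs. In saline-treated mice it was 46.0, 52.9 and 65.2 CPM in TRAP, against 36.9 and 45.6 CPM in input. TRAP libraries were above the inputs in both treatments, though in saline-treated mice TRAP replicate 4 and input replicate 12 were nearly level. *Ret* was 1.52 times input in DSP-4-treated mice (95% interval 1.18 to 1.96, log2 fold change 0.60 ± 0.17 SE, adjusted p = 0.0105), and the ratio was 1.33 in saline-treated mice (1.005 to 1.75, 0.41 ± 0.19, adjusted p = 0.123). The saline value passed without TRAP replicate 4 (0.50, adjusted p = 0.0788) or without DSP-4 TRAP replicate 2 (0.41, adjusted p = 0.0821), without both DSP-4 libraries that stood apart (0.41, adjusted p = 0.0751), with GC offsets (0.48, adjusted p = 0.0700) and with libraries scaled by total counts alone (0.48, adjusted p = 0.0774).

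*Gfra1* (chromosome 19, 58235604 to 58455909, minus strand) encodes the co-receptor that GDNF prefers, and 7.60% of its exonic length is overlapped by *Gm16277* on the other strand. In DSP-4-treated mice it had a minimum of 49.5, a median of 64.5 and a maximum of 76.5 CPM in TRAP, against 37.4 and 41.0 CPM in input. In saline-treated mice it was 76.4, 47.2 and 73.8 CPM in TRAP, against 42.0 and 38.0 CPM in input. All 9 TRAP libraries were above all 4 inputs, and the lowest of them was saline replicate 6. That library also had a summed cerebellar marker level of 1028 CPM, against 351 and 375 CPM in the other 2 saline TRAP libraries. The DSP-4 TRAP libraries ran from 402 to 1017 CPM. Their highest was replicate 1, which had the lowest *Gfra1* of its group (49.5 CPM). Replicates 7 and 8 came next, at 690 and 777 CPM, and had the highest *Gfra1* (76.5 and 71.4 CPM). The part of cerebellar RNA in these *Gfra1* levels was not tested. TRAP was 1.64 times input in DSP-4-treated mice (95% interval 1.204 to 2.23, log2 fold change 0.71 ± 0.21 SE, adjusted p = 0.0122) and 1.64 times input in saline-treated mice (1.17 to 2.30, 0.72 ± 0.23, adjusted p = 0.0306). The call was lost in DSP-4-treated mice without input replicate 2 (0.63, adjusted p = 0.120), and in saline-treated mice without input replicate 5 (0.78, adjusted p = 0.109) or 12 (0.65, adjusted p = 0.188).

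*Gfra2* (chromosome 14, 70890120 to 70979838, plus strand), the co-receptor for neurturin, was at about the same level in TRAP and input. In DSP-4-treated mice it had a minimum of 23.9, a median of 34.5 and a maximum of 48.4 CPM in TRAP, against 35.0 and 32.5 CPM in input. In saline-treated mice it was 22.1, 24.6 and 38.0 CPM in TRAP, against 25.8 and 30.3 CPM in input. The groups overlapped in both treatments, with a log2 fold change of 0.021 in DSP-4-treated mice (95% interval -0.52 to 0.56) and 0.013 in saline-treated mice (-0.59 to 0.61). These intervals leave room for a change of up to about 0.6 on the log2 scale in either direction.

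*Sort1* (chromosome 3, 108284082 to 108361511, plus strand) is overlapped by *Gm12523* on the other strand over 4.47% of its exonic length. In DSP-4-treated mice it had a minimum of 90.4, a median of 121 and a maximum of 167 CPM in TRAP, against 105 and 99.9 CPM in input. In saline-treated mice it was 103, 108 and 160 CPM in TRAP, against 65.8 and 86.6 CPM in input. The groups overlapped in DSP-4-treated mice through TRAP replicate 7 and did not overlap in saline-treated mice. The log2 fold change was 0.29 ± 0.22 (SE) in DSP-4-treated mice (adjusted p = 0.301) and 0.70 ± 0.25 in saline-treated mice (adjusted p = 0.0488). The saline call was lost without TRAP replicate 12 (0.47, adjusted p = 0.200) or input replicate 5 (0.50, adjusted p = 0.315).

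**Figure D2:**
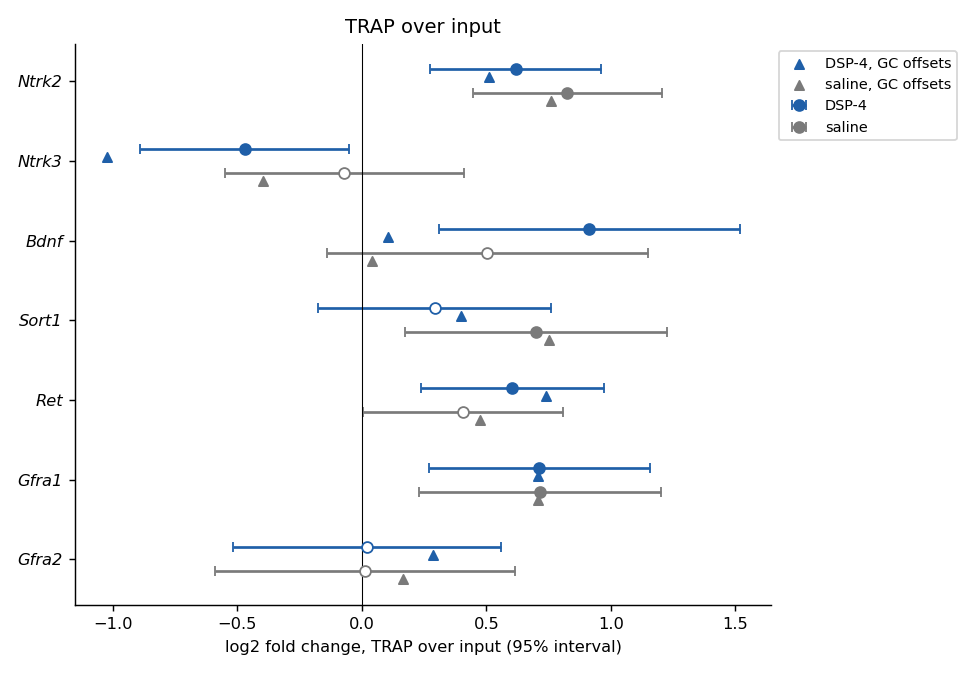
TRAP over input for the 7 genes, as log2 fold change on the horizontal axis, in DSP-4-treated mice (blue, upper of each pair) and saline-treated mice (grey). Circles are the main estimates with 95% intervals, filled where the adjusted p was under 0.1, and triangles are the estimates with GC offsets. *Ntrk2* and *Gfra1* are filled in both treatments, while the *Bdnf* triangles lie near 0 (0.11 and 0.040).

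TRAP and input libraries with the same number were taken to come from one homogenate, which gives 3 pairs (DSP-4 replicates 2 and 7, saline replicate 12). Within them, the ratio of TRAP to input for *Ntrk2* was 1.44 and 1.46 in the DSP-4 pairs and 1.82 in the saline pair. For *Gfra1* it was 1.58 and 1.87 in the DSP-4 pairs and 1.94 in the saline pair, and for *Bdnf* it was 1.45 and 2.06 in the DSP-4 pairs and 1.94 in the saline pair. *Ret* gave 1.70 and 1.37 in the DSP-4 pairs and 1.43 in the saline pair. These pairs are 6 of the 13 libraries of the main fit, so their ratios are not separate support for its calls. *Ntrk3* gave 0.55 and 0.79 in the DSP-4 pairs and 0.99 in the saline pair. *Gfra2* and *Sort1* differed in direction between the DSP-4 pairs, with 1.38 and 0.83 for *Gfra2* and 1.60 and 0.90 for *Sort1*, and had 1.25 and 1.85 in the saline pair. In a fit with the replicate block over these 6 libraries, *Gfra1* in DSP-4-treated mice was the one call that held (0.79, adjusted p = 0.0820). Under that block the other DSP-4 values were 0.55 for *Ntrk2* (adjusted p = 0.212), 0.62 for *Ret* (adjusted p = 0.169), 0.80 for *Bdnf* (adjusted p = 0.173) and -0.59 for *Ntrk3* (adjusted p = 0.247). The blocked saline values rest on 1 pair, with 0.89 for *Ntrk2* (adjusted p = 0.266), 0.98 for *Gfra1* (adjusted p = 0.233) and 0.91 for *Sort1* (adjusted p = 0.278). With the block as a random effect over all 13 libraries, every call of the main fit was kept and *Ret* in saline-treated mice was added (0.42, adjusted p = 0.0855). Over 23 alternatives, the adjusted p in DSP-4-treated mice ran from 0.000779 to 0.2998 for *Ntrk2* (3 lost the call), from 0.00275 to 0.169 for *Ret* (1), from 0.00382 to 0.120 for *Gfra1* (1), from 0.00561 to 0.929 for *Bdnf* (4) and from 0.000824 to 0.247 for *Ntrk3* (6). The range in saline-treated mice was from 0.000118 to 0.343 for *Ntrk2* (2 lost the call), from 0.00946 to 0.240 for *Gfra1* (4) and from 0.0174 to 0.315 for *Sort1* (4), and from 0.0700 to 0.525 for *Ret*, which passed in 6. None of these values changed direction.

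The second question was whether DSP-4 changed the level of these genes in the TRAP RNA. None of the 7 genes passed in TRAP, by edgeR, DESeq2 or limma, and 0 of 7 had an unadjusted p under 0.05 by any of the 3 tools. Among all genes, 0.025% passed (3 genes) and 1.88% had an unadjusted p under 0.05. The largest estimates were 0.27 ± 0.24 (log2, SE) for *Gfra2*, 0.19 ± 0.16 for *Ret* and -0.18 ± 0.20 for *Ntrk3*, followed by -0.13 ± 0.25 for *Bdnf*, -0.076 ± 0.15 for *Ntrk2*, -0.042 ± 0.19 for *Gfra1* and 0.011 ± 0.19 for *Sort1* (adjusted p = 0.9998 for each). The TRAP libraries of DSP-4-treated and saline-treated mice overlapped for all 7 genes, and 1.28% of all genes did not overlap. The TRAP RNA also held RNA of other cells. TRAP over input (log2) was 3.81 for *Slc6a2* in DSP-4-treated mice and 4.75 in saline-treated mice. Among the 7 genes the highest values were 0.91 (*Bdnf*, DSP-4-treated mice) and 0.82 (*Ntrk2*, saline-treated mice). The summed noradrenergic marker level in TRAP was lower in DSP-4-treated mice (572 to 787 against 933 to 1114 CPM). The change within NET-expressing cells alone was not tested. The intervals bound the change in the TRAP RNA as a whole. As a fold of DSP-4 over saline they ran from 0.76 to 1.18 for *Ntrk2*, from 0.66 to 1.18 for *Ntrk3*, from 0.90 to 1.44 for *Ret*, from 0.73 to 1.29 for *Gfra1*, from 0.85 to 1.71 for *Gfra2*, from 0.63 to 1.32 for *Bdnf* and from 0.75 to 1.35 for *Sort1*. In the same fit *Slc6a2* had a fold of 0.36 (0.25 to 0.51, adjusted p = 0.0928) and *Dbh*, which encodes the enzyme that makes norepinephrine, a fold of 0.42 (0.31 to 0.56, adjusted p = 0.0928).

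DSP-4 TRAP replicate 2 held the highest *Ret*, *Gfra2* and *Sort1* of its group and the lowest *Ntrk3*. Replicate 1 held the lowest *Ntrk2*, *Gfra1*, *Gfra2* and *Bdnf*, and replicate 7 the highest *Gfra1* and the lowest *Ret* and *Sort1*. Replicate 2 had a summed level of 12221 CPM for 10 oligodendrocyte markers, none of them at 0. The other DSP-4 TRAP libraries had 6241 to 8009 CPM and the saline TRAP libraries 7033 to 7566 CPM. The part of oligodendrocyte RNA in the levels of the 7 genes was not tested. Without replicates 2 and 3, *Gfra2* in DSP-4 over saline was 0.12, *Sort1* was -0.090 and *Ret* was 0.16, and no gene of the 7 passed.

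**Figure D3:**
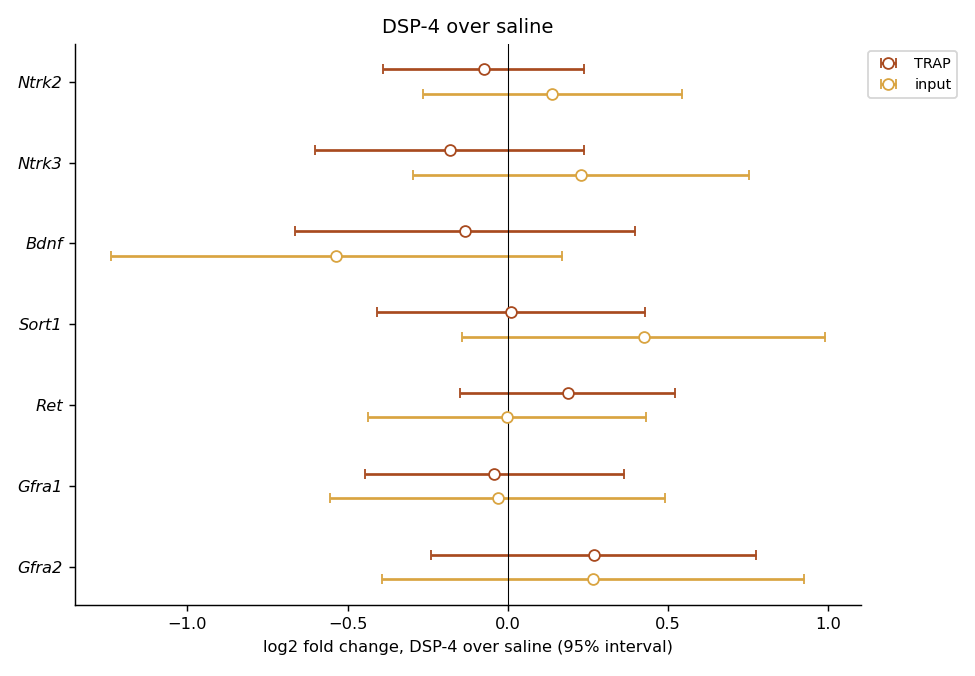
DSP-4 over saline for the 7 genes, as log2 fold change on the horizontal axis with 95% intervals, in TRAP (brown, upper of each pair) and in input (yellow). All circles are open, since none had an adjusted p under 0.1, and the interval includes 0 for each gene in both.

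In input, which measures the hindbrain as a whole, 0 of 7 genes passed DSP-4 over saline by edgeR, DESeq2 or limma, as did 0% of all genes, and 0 of 7 had an unadjusted p under 0.05 (2.55% of all genes by edgeR). The largest estimates were -0.53 ± 0.33 (log2, SE) for *Bdnf* and 0.42 ± 0.27 for *Sort1* (adjusted p = 0.99996 for both). Both *Bdnf* inputs of DSP-4-treated mice were below both of saline-treated mice, and both inputs of *Ntrk3*, *Gfra2* and *Sort1* were above them, but with 2 libraries against 2 the groups were apart for 44.5% of all genes (18.2% higher and 26.3% lower in DSP-4-treated mice). The log2 fold change in input had a Spearman correlation of 0.65 with GC content across genes, and with GC offsets the largest input values were 0.44 for *Ntrk3* (unadjusted p = 0.0827) and 0.38 for *Sort1*, with -0.23 for *Bdnf*. The enrichment itself was then compared between treatments. The difference of TRAP over input, DSP-4 minus saline, was 0.41 ± 0.40 (log2, SE) for *Bdnf*, -0.41 ± 0.33 for *Sort1*, -0.40 ± 0.30 for *Ntrk3*, -0.21 ± 0.23 for *Ntrk2*, 0.20 ± 0.25 for *Ret*, 0.0079 ± 0.38 for *Gfra2* and -0.0039 ± 0.30 for *Gfra1*. None of the 7 passed by edgeR, DESeq2 or limma (adjusted p = 0.9997 for each by edgeR), 0 had an unadjusted p under 0.05, and 0% of all genes passed (2.67% at an unadjusted p under 0.05). With GC offsets the difference was 0.066 for *Bdnf* and -0.63 for *Ntrk3*, whose unadjusted p was then 0.0478 (adjusted p = 0.9999), and with the replicate block the *Bdnf* difference was -0.17. The calls made in one treatment and not in the other, for *Ret*, *Bdnf*, *Ntrk3* and *Sort1*, are therefore not shown to differ between treatments.

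Levels can be set against each other once divided by exonic length, as CPM per kilobase. In TRAP from DSP-4-treated mice, *Sort1* was at 16.5 ± 3.39 CPM per kilobase, *Ntrk2* at 11.8 ± 1.49, *Gfra1* at 11.7 ± 1.74, *Gfra2* at 9.66 ± 2.43 and *Ret* at 9.26 ± 0.740 (SD, n = 6). *Bdnf* followed at 2.54 ± 0.538 and *Ntrk3* at 0.737 ± 0.140 CPM per kilobase. Neighbours among the first 5 overlapped, and *Bdnf* and *Ntrk3* were each apart from the gene above. In TRAP from saline-treated mice the same 5 genes were at 7.98 to 16.3 CPM per kilobase, with *Sort1* first, its range overlapping that of *Gfra1*, and *Bdnf* at 2.76 ± 0.793 and *Ntrk3* at 0.831 ± 0.0883 (SD, n = 3). In input, *Sort1* was again first (13.5 ± 0.440 in DSP-4-treated and 10.1 ± 1.95 CPM per kilobase in saline-treated mice, SD, n = 2 each), and *Gfra2* was second (9.53 ± 0.500 and 7.92 ± 0.914 CPM per kilobase), ahead of *Ntrk2* and *Gfra1*, although in saline-treated mice its range overlapped that of *Gfra1*. The exonic lengths used are the union of all annotated exons (30170 bases for *Ntrk3*), so a gene with long exons that are seldom used has a lower value on this scale.

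Genes with the most similar pattern over the 13 libraries were named by Pearson's r of log2 CPM, as a description in which TRAP and input libraries of the same kind share their level. They were *Sorl1* (r = 0.971) and *Plxna2* (0.971) for *Ntrk2*, *Pmf1* (0.915) and *C1ql4* (0.906) for *Ntrk3*, *Nup62* (0.971) and *Efnb2* (0.965) for *Ret*, and *Ephx2* (0.963) and *Rbsn* (0.951) for *Gfra1*. They were *Ksr1* (0.879) and *Slc9a5* (0.851) for *Gfra2*, *Zfp458* (0.947) and *Hhip* (0.946) for *Bdnf*, and *6430548M08Rik* (0.956) and *Cds2* (0.952) for *Sort1*.

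The rest of the pathway was described from lists of the other ligands, receptors, adaptors and kinases, p75NTR partners and trafficking genes. Values of these genes are given without GC offsets. Across genes, TRAP over input had a Spearman correlation with GC content of -0.58 in DSP-4-treated and -0.42 in saline-treated mice. The part of GC content in the values of the listed genes was not tested. Of the 7 other ligands, 1 was measured, *Nrtn*, which encodes neurturin, the ligand of GFRα2. *Nrtn* had a minimum of 8.84, a median of 12.3 and a maximum of 18.1 CPM in TRAP from DSP-4-treated mice, against 23.97, 28.98 and 17.7 CPM in TRAP from saline-treated mice. Saline replicate 12 lay within the DSP-4 range, so the groups overlapped. The log2 fold change of DSP-4 over saline was -0.82 ± 0.25 (SE, unadjusted p = 0.00497, adjusted p = 0.9998), the lowest unadjusted p among the 7 genes and the 5 lists. In input it was 29.99 and 33.8 CPM in DSP-4-treated mice, against 23.1 and 30.6 CPM in saline-treated mice. *Nrtn* was lower in TRAP than in input in DSP-4-treated mice (-1.25, adjusted p = 0.000956), with -0.19 in saline-treated mice (adjusted p = 0.672). The difference between these was -1.06 (adjusted p = 0.9997).

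Of 15 other receptors and co-receptors, 12 were measured, of which 6 were higher and 2 lower in TRAP than in input in DSP-4-treated mice, and 6 higher and 1 lower in saline-treated mice. Of all genes, 27.3% were higher and 23.8% lower in DSP-4-treated mice, and 19.5% higher and 15.7% lower in saline-treated mice, and these shares are the background of the lists that follow as well. *Sorl1*, a sorting receptor related to sortilin, averaged 194 ± 32.2 CPM in TRAP and 102 ± 6.01 CPM in input of DSP-4-treated mice (SD, n = 6 and n = 2). In saline-treated mice *Sorl1* averaged 229 ± 48.2 CPM in TRAP and 86.0 ± 3.43 CPM in input (SD, n = 3 and n = 2). Its log2 fold changes of TRAP over input were 0.93 in DSP-4-treated mice (adjusted p = 0.00162) and 1.41 in saline-treated mice (adjusted p = 0.000513). *Ncam1*, a cell adhesion molecule that can also bind GDNF, was higher in TRAP by 0.97 in DSP-4-treated mice (adjusted p = 0.000494) and by 1.08 in saline-treated mice (adjusted p = 0.00119). *Kidins220*, a scaffold protein of Trk receptors, was higher by 0.997 in DSP-4-treated mice (adjusted p = 0.000810) and by 1.12 in saline-treated mice (adjusted p = 0.00171). *Gfra4*, the co-receptor for persephin, was lower, at -1.27 in DSP-4-treated mice (adjusted p = 1.13e-05) and -0.99 in saline-treated mice (adjusted p = 0.000840). In DSP-4 over saline in TRAP none of the 12 passed, and 0 had an unadjusted p under 0.05 by edgeR, DESeq2 or limma. The 4 with the lowest p were *Sorcs2* (-0.39), *Gfra4* (-0.25), *Sorl1* (-0.24) and *Lingo1* (0.19).

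Of 35 adaptors and kinases downstream of Trk and Ret, 33 were measured, and their median was below 0 in TRAP over input (-0.16 in DSP-4-treated and -0.14 in saline-treated mice). In DSP-4-treated mice 12 were higher and 10 lower, and in saline-treated mice 8 were higher and 8 lower. These 22 and 16 calls stand beside 51.1% and 35.1% of all genes, and the 16 in saline-treated mice were 17 by DESeq2 and 14 by limma. *Pik3ca*, the catalytic subunit of PI3-kinase, was higher in TRAP by 2.04 in DSP-4-treated mice (adjusted p = 9.42e-05) and by 1.41 in saline-treated mice (adjusted p = 0.00445). *Sos1*, an exchange factor for Ras, was higher by 1.64 in DSP-4-treated mice (adjusted p = 1.91e-05) and by 1.25 in saline-treated mice (adjusted p = 0.000761). *Akt1* and *Map2k2*, kinases of the survival and ERK pathways, were lower, at -1.82 and -1.16 in DSP-4-treated mice (adjusted p = 1.10e-06 and 1.99e-05) and -1.51 and -0.88 in saline-treated mice (adjusted p = 8.73e-05 and 0.00165). In DSP-4 over saline in TRAP 0 of 33 passed and 1 had an unadjusted p under 0.05 by edgeR, DESeq2 and limma alike. By edgeR that gene was *Hras*, a Ras GTPase (-0.34, unadjusted p = 0.0297, adjusted p = 0.9998), followed by *Crkl* (0.23), *Map2k2* (-0.18) and *Shc1* (0.36).

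All 8 intracellular partners of p75NTR in the list were measured, with 2 higher and 2 lower in TRAP in each treatment. *Maged1* (0.66 in DSP-4-treated mice, adjusted p = 0.0139, and 0.59 in saline-treated mice, adjusted p = 0.0566) and the kinase *Mapk8* (0.93, adjusted p = 0.000342, and 0.50, adjusted p = 0.0482) were higher. The kinase *Irak1* was lower (-0.81 in DSP-4-treated mice, adjusted p = 0.00296, and -0.67 in saline-treated mice, adjusted p = 0.0350). All 10 genes of proneurotrophin cleavage and receptor trafficking were measured, with 5 higher and 3 lower in DSP-4-treated mice, and 3 higher and 3 lower in saline-treated mice. *Furin*, a protease that cleaves proneurotrophins, was lower in TRAP (-1.79 in DSP-4-treated mice, adjusted p = 0.000485, and -1.54 in saline-treated mice, adjusted p = 0.00973). *Gipc1*, an adaptor that binds Trk receptors, and *Snapin* were lower as well (-1.47 and -1.24 in DSP-4-treated mice, -1.02 and -1.25 in saline-treated mice), and the endosomal protein *Ehd4* was higher (0.78 in DSP-4-treated mice, adjusted p = 0.00373, and 0.93 in saline-treated mice, adjusted p = 0.00447). *Ilf2* on the other strand overlaps 15.5% of the exonic length of *Snapin*. In DSP-4 over saline in TRAP none of the 8 or of the 10 passed, and 0 of them had an unadjusted p under 0.05 by edgeR, DESeq2 or limma. Those with the lowest p included *Ngfrap1* (-0.16), *Maged1* (-0.10) and *Traf6* (0.094) among the partners, and *Gipc1* (-0.31), *Rab5a* (0.18), *Cpe* (0.16) and *Rab7* (0.088) among the trafficking genes.

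**Figure D4:**
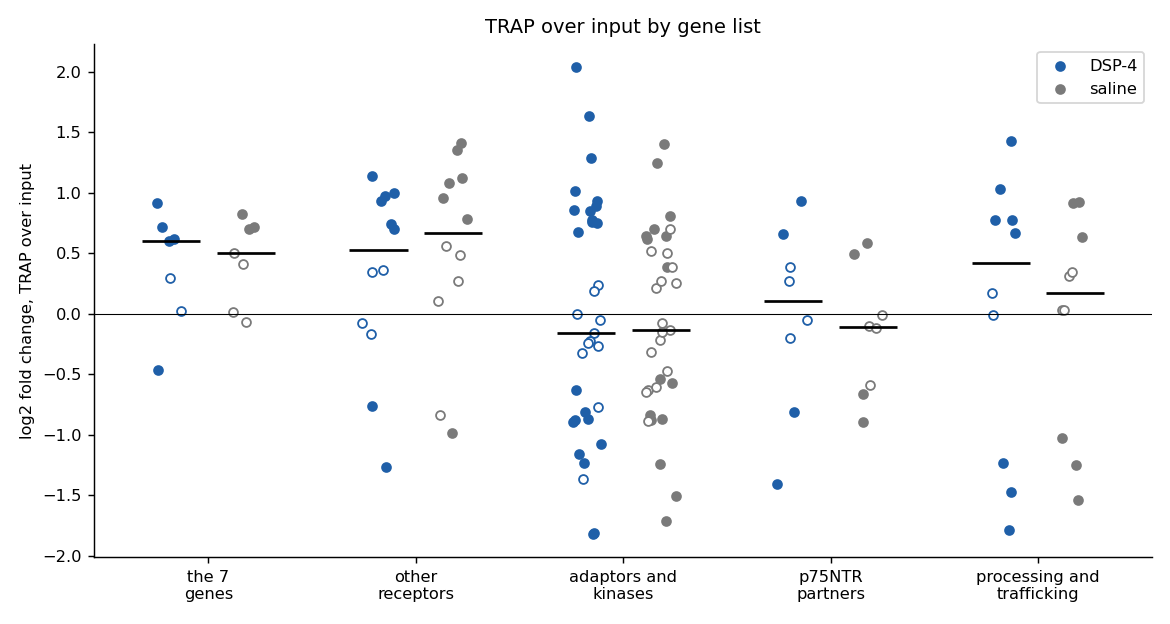
TRAP over input by gene list, as log2 fold change on the vertical axis, in DSP-4-treated mice (blue, left of each pair) and saline-treated mice (grey, right). Each circle is a gene, filled where its adjusted p was under 0.1, and bars are medians, which were 0.60 and 0.50 for the 7 genes, 0.53 and 0.67 for the 12 other receptors, -0.16 and -0.14 for the 33 adaptors and kinases, 0.11 and -0.11 for the 8 p75NTR partners and 0.42 and 0.17 for the 10 trafficking genes.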

How the data were processed

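TRAP and input RNA was sequenced in 13 libraries. Per the labels and the study's methods, paired reads were aligned to mm10 with STAR and counted per gene with featureCounts; versions, annotation and strand setting are not given in the sources used, so reads of genes that overlap on opposite strands may be mixed. The deposited values are labelled as filtered and normalized counts but are whole numbers, and they were treated here as raw counts. The authors' filter has a cutoff not given, and the lowest mean was 78.4 per gene. TMM-scaled CPM (counts scaled to a common library size) and log2 fold changes were computed here.

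Differences were tested with edgeR 4.0.16 (quasi-likelihood, two-sided, R 4.3.3) with Benjamini-Hochberg adjustment over 12009 genes and a threshold of 0.1. DSP-4 over saline in TRAP was fitted on the 9 TRAP libraries, and all other contrasts on the 13 libraries in 4 groups. Alternatives were DESeq2 1.42.0, limma 3.58.1, scaling by library size or upper quartile, a filter at 1 CPM, offsets for GC content, leaving out each library, leaving out the 2 libraries that stood apart, and a replicate block. Same-numbered TRAP and input libraries were taken to come from one homogenate, since by the study's methods each homogenized replicate gave both. After the group means were subtracted each pair's values correlated across genes at 0.181, 0.266 and 0.295. Pairs with unlike numbers were not compared, so these values do not test the pairing. Replicates are separate pools of mice. Library totals were 17491357 to 29199550 counts. Exonic lengths, overlaps and GC content (of each gene's longest transcript) are from GENCODE vM21 (GRCm38), with 449 table names not matched. The fits of DSP-4 over saline in TRAP and of TRAP over input in saline-treated mice were run on simulated counts. The simulation held no trend with GC content and no pairing, and its outcome is not given here.

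Named genes were all 7 measured genes, *Slc6a2* and *Dbh*, up to 4 genes per list with the lowest p in DSP-4 over saline in TRAP and up to 4 in TRAP over input in saline-treated mice, and the 2 most similar genes per gene by Pearson's r. One gene that this rule names among the p75NTR partners is not reported here. 1 partner is listed under 2 symbols (*Bex3*, *Ngfrap1*) and counted once. The genes and lists were chosen with earlier results of these data known. Figures were drawn with matplotlib 3.10.9.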

Additional observations from a re-analysis of the deposited data

How the results depend on the processing

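No gene of the 7 passed in DSP-4 over saline (TRAP or input) or in the difference of TRAP over input under any alternative run. In DSP-4 over saline in TRAP, 5 genes of the table passed by DESeq2, 1 with library-size scaling, 1 with GC offsets and 0 to 3 when each library was left out, against 3. In TRAP over input in DSP-4-treated mice, leaving out each library gave 3678 to 6914 genes and 2 to 5 of the 7; in saline-treated mice it gave 2100 to 5185 genes and 1 to 4 of the 7. With the replicate block over the 6 paired libraries, 3736 genes and 1 of the 7 passed in DSP-4-treated mice and 707 genes and 0 of the 7 in saline-treated mice. With the block and GC offsets these were 3039 and 3, and 584 and 0. The fit has 6 libraries in place of 13.

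Several log2 values changed sign, all of them under 0.1 in size except the DSP-4 over saline value of *Bdnf* in TRAP (-0.13) and its difference of TRAP over input (0.41). Without the 2 libraries that stood apart, DSP-4 over saline in TRAP was 0.0032 for *Gfra1* and -0.090 for *Sort1*, TRAP over input in DSP-4-treated mice was -0.13 for *Gfra2*, and the difference was 0.034 for *Gfra1* and -0.14 for *Gfra2*. By limma, *Gfra2* in TRAP over input was -0.016 in DSP-4-treated and -0.026 in saline-treated mice, *Ret* in input was 0.0053 and the *Gfra1* difference 0.015. With upper-quartile scaling, *Gfra2* in TRAP over input was -0.037 in DSP-4-treated and -0.031 in saline-treated mice, its difference -0.0056, and *Ret* in input 0.025. With library-size scaling, *Ntrk3* in TRAP over input in saline-treated mice was 0.0084, and in input *Ret* was 0.024 and *Gfra1* 0.00091. With GC offsets the *Gfra1* difference was 0.0020. With the replicate block, *Ntrk3* in saline-treated mice was 0.0034, and the differences were -0.23 for *Gfra2* and -0.17 for *Bdnf*, or -0.18 and -0.37 with GC offsets too. With the block as a random effect, *Ret* in input was 0.028 and the differences were 0.0036 for *Gfra1* and -0.0081 for *Gfra2*. Leaving out each library gave, in DSP-4 over saline in TRAP, -0.34 to 0.075 for *Bdnf*, -0.23 to 0.084 for *Gfra1* and -0.0997 to 0.25 for *Sort1*, and in input -0.10 to 0.0495 for *Gfra1* and -0.14 to 0.16 for *Ret*. It gave -0.10 to 0.11 (DSP-4-treated) and -0.26 to 0.15 (saline-treated) for *Gfra2* in TRAP over input, -0.15 to 0.0095 for *Ntrk3* in saline-treated mice, and differences of -0.19 to 0.12 for *Gfra1* and -0.13 to 0.28 for *Gfra2*. The cause was not tested. With 2 inputs per treatment, each input weighs heavily on TRAP over input.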
